A study of Mus musculus with 9 samples.

Results

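The genes described here are 9 transcriptional regulators tied to leukaemic self-renewal: the HOXA cluster genes Hoxa5, Hoxa7, Hoxa9 and Hoxa10, their DNA-binding cofactors Meis1 and Pbx3, and the transcription factors Mef2c, Myb and Mecom. They were chosen by symbol, with earlier results of these data known, and all 9 are among the 24756 rows of the deposited count table. They were followed through the loss of FLT3-ITD, a mutant growth factor receptor that is active without ligand, in a mouse acute myeloid leukaemia line. The line was made from foetal liver cells with a pair of retroviral vectors. MSCV-Luc2-IRES-MLL-AF9 is expressed all the time, so every group carries MLL-AF9, and TRE-tight-DsRED-IRES-FLT3-ITD needs doxycycline. There were 3 libraries of 3' mRNA sequencing in each of 3 groups: ON, which stayed in doxycycline at 1 µg/mL; OFF24, taken 24 h after PBS washes removed the drug; and OFF48, taken 48 h after those washes. Doxycycline and FLT3-ITD left together, and no library lacks the transgene. The washes and the hours after them also differ between groups, and no ON library is labelled as washed or matched in time. The effects of the drug, FLT3-ITD, washing and time therefore cannot be told apart. All libraries come from 1 line, and no label says that libraries of a group were separate cultures. The p-values therefore reflect only how much these samples vary, which may be technical.

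HOXA proteins are homeodomain transcription factors whose genes lie side by side in a cluster, and they are normally high in blood stem and progenitor cells and shut off as myeloid cells mature. They bind DNA together with TALE homeodomain proteins of the MEIS and PBX families. MLL fusion proteins bind the HOXA cluster and Meis1 and keep them on, which is the core of the program that lets MLL-rearranged progenitors renew themselves. Myb is needed to maintain that program, and MEF2C and MECOM are each linked to aggressive forms of MLL-rearranged leukaemia.

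Levels are CPM, read counts relative to library size, scaled between libraries by TMM, with the SD over n = 3 libraries. A 3' library gives about the same number of reads per transcript whatever its length, and levels are compared here between groups, not between genes. Changes are log2 fold changes with an approximate SE, tested by edgeR's quasi-likelihood test over 10215 genes with Benjamini-Hochberg adjustment. A gene is said to have risen or fallen where its adjusted p was under 0.05. Library totals ran from 1329296 counts (OFF48 replicate 2) to 4038456 (ON replicate 2).

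The promoters of 4 members are shown because these genes moved by different amounts and at different times although all belong to 1 program: Hoxa5 and Myb had the larger rises, Meis1 an intermediate one and Hoxa9 the smallest that was called. Each line gives the 250 bases before the RefSeq transcription start on the gene's own strand, 5′ to 3′, from RefSeq on GRCm38.p6. Capitals mark CG dinucleotides, because the CXXC domain that MLL keeps in its fusions binds unmethylated CpG DNA. The windows are chr6:52204588-52204837 (Hoxa5), chr6:52227371-52227620 (Hoxa9), chr11:19018970-19019219 (Meis1) and chr10:21160985-21161234 (Myb), all on the minus strand.
Hoxa5: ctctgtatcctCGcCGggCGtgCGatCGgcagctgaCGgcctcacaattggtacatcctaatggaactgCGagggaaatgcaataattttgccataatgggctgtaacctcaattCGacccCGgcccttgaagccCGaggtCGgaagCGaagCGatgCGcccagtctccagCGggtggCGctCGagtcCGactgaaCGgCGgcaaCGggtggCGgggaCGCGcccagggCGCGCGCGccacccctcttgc
Hoxa9: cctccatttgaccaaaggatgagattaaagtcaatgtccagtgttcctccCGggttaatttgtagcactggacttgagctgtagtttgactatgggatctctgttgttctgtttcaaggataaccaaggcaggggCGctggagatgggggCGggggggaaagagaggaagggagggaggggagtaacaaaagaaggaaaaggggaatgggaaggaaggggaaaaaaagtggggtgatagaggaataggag
Meis1: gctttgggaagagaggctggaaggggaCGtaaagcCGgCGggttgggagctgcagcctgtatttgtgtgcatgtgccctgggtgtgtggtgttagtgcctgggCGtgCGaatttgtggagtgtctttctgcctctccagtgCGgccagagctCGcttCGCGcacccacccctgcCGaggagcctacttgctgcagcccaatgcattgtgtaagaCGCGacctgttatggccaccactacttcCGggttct
Myb: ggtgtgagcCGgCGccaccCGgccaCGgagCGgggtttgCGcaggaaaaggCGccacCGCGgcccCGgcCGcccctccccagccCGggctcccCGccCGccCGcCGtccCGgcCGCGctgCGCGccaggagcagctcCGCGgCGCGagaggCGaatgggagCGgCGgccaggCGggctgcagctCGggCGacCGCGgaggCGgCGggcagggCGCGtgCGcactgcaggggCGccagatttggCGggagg

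CG dinucleotides numbered 28 in the Hoxa5 window, 3 in that of Hoxa9, 13 in that of Meis1 and 40 in that of Myb, against a median of 6 over the 32851 windows of that table. G and C made up 63.6%, 49.6%, 59.6% and 81.2% of these windows, against a median of 52.4%. The windows of other members had 7 CG dinucleotides (Hoxa7), 7 and 20 (Hoxa10), 1, 6 and 4 (Mef2c) and 14 and 8 (Mecom). Because the 4 windows printed were picked by the size of the genes' changes, their CG numbers cannot be read against those changes. A link between CG number and change was not tested. RefSeq windows matched 8 of the 9 members, and Pbx3 was not matched. Of 5 motifs searched on both strands, the MEIS motif TGACAG (15.9% of all windows) was found in 1 of the 12 members' windows, that of a Mecom start. The MYB motif TAACNG (19.8%) was found in the Meis1 window and in 1 of 3 Mef2c windows, and the STAT5 motif TTCNNNGAA (7.02%) in that same Mef2c window. The PBX-HOX motif TGATTNAT (2.82%) and the FOXO motif GTAAACA (3.17%) had no match in them. The matches lay 86 bases before the start in Mecom (MEIS), 30 in Meis1 (MYB) and, in Mef2c, 157 (STAT5) and 29 (MYB), so they did not overlap. They describe letters only.

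Of the 9 members, 8 passed the filter on low counts and were tested, and Mecom was not. Members and the gene lists below were chosen with earlier results of these data known. Their counts beside the shares of all tested genes therefore cannot be read as an unbiased excess. At 24 h, 6 of the 8 rose (Hoxa5, Hoxa7, Hoxa9, Meis1, Pbx3 and Myb) and 0 fell, where 17.8% of all tested genes rose, 17.4% fell and 35.3% did either. At 48 h against ON, 4 rose (Hoxa5, Hoxa10, Meis1 and Myb) and 0 fell, where 23.4% of all tested genes rose, 23.9% fell and 47.4% did either. The median log2 change of the 8 was 0.58 at 24 h and 0.38 at 48 h, against 0.03 and 0.01 over all tested genes. Between OFF24 and OFF48 only Myb passed the test, and it rose, where 9.99% of all tested genes rose, 11.2% fell and 21.1% did either. All 3 libraries lay above all ON libraries for 6 members at 24 h (25.1% of all tested genes, with 23.8% below) and for 3 at 48 h (25.6%, with 27% below). OFF48 lay wholly above OFF24 for Myb (18.2% of all tested genes) and wholly below it for Hoxa7, Hoxa9 and Mef2c (19.8%). In bulk RNA, a different share of cells with a gene on and a different amount of it per cell cannot be told apart.

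**Figure D1:**
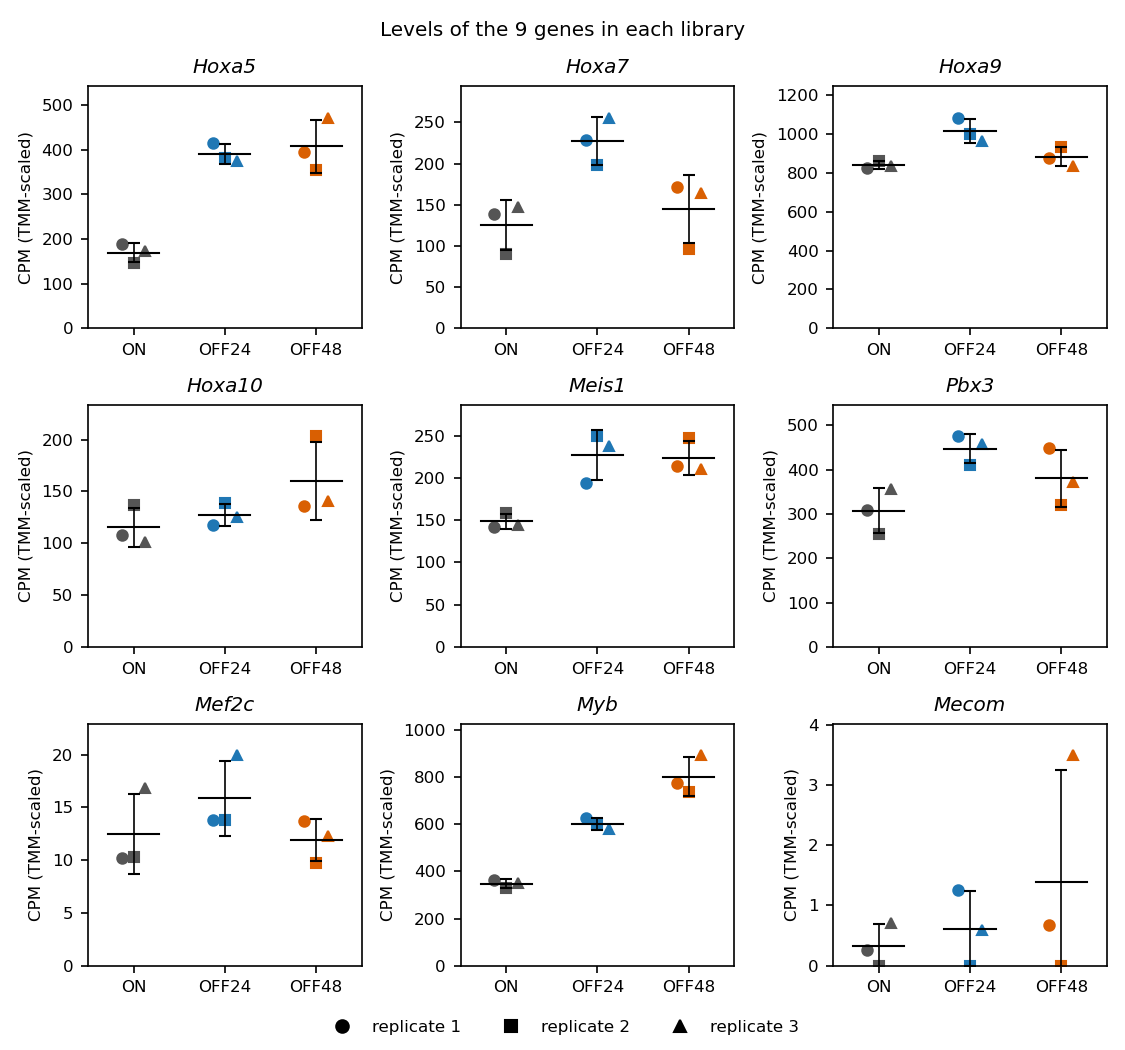
Level of each of the 9 genes (CPM, linear axes from 0) in the 3 libraries of each group, with the mean (line) and SD (bar). Hoxa5, Meis1 and Myb are above every ON library in all 6 libraries without doxycycline, and the Mecom panel spans only 0 to 3.50 CPM.

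Hoxa5 is a mid-cluster HOX factor that is highly expressed with Hoxa9 in many MLL-rearranged leukaemias. It stood at 188, 146 and 173 CPM in ON replicates 1 to 3, at 416, 381 and 374 CPM in OFF24 and at 396, 355 and 472 CPM in OFF48. All 6 libraries without doxycycline lay above all ON libraries, and the OFF24 and OFF48 ranges overlapped. The rise was 2.31-fold at 24 h (log2 1.21, SE 0.12, edgeR adjusted p = 3.77e-07). At 48 h it was 2.42-fold (log2 1.28 ± 0.12, edgeR adjusted p = 5.99e-08). The levels at 48 h and 24 h differed by log2 0.07 ± 0.12 (edgeR adjusted p = 0.719). In mm10 (GENCODE M21) the gene lies on chromosome 6 from 52201754 to 52204587.

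Hoxa6 lies between Hoxa5 and Hoxa7. Hoxa7 stood at 138, 90.4 and 147 CPM in ON and at 228, 198 and 256 CPM in OFF24. In OFF48 it stood at 172, 96.7 and 165 CPM. OFF24 lay above both other groups, and OFF48 overlapped ON. The gene rose 1.82-fold at 24 h (log2 0.87 ± 0.21, edgeR adjusted p = 0.00869), and at 48 h its change against ON was log2 0.24 ± 0.22 (edgeR adjusted p = 0.392). From 24 h to 48 h the change was log2 -0.62 ± 0.22 (edgeR adjusted p = 0.0632), which missed the threshold although no OFF48 library reached the OFF24 range, as was the case for 19.8% of all tested genes. This last contrast passed in 7 of 19 alternative settings (adjusted p from 1.9e-05 to 0.187). The 48 h rise passed only without OFF48 replicate 2 (log2 0.43, edgeR adjusted p = 0.0394). The last 400 bases of Hoxa7 (chromosome 6, 52214491 to 52221854) overlap Hoxaas3 on the opposite strand. The strand setting of the counting is not given, so reads of the pair cannot be told apart. Hoxaas3 itself had 2.01 to 7.85 CPM.

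Hoxa9, the HOX gene most closely tied to MLL fusion leukaemia, moved little. It stood at 825, 863 and 838 CPM in ON, at 1086, 999 and 967 CPM in OFF24 and at 879.6, 935 and 839 CPM in OFF48. OFF24 lay above both other groups, which overlapped. The rise at 24 h was 1.21-fold (log2 0.27 ± 0.09, edgeR adjusted p = 0.0252), and at 48 h the change was log2 0.07 ± 0.09 (edgeR adjusted p = 0.558). The 24 h call was lost in 7 of 19 alternative settings (adjusted p from 0.00945 to 0.139 over all 19). It was lost without ON replicate 1 (0.11), ON replicate 3 (0.0721), OFF24 replicate 1 (0.139), OFF24 replicate 2 (0.0707) or OFF24 replicate 3 (0.0559), each an edgeR adjusted p, with log2 changes of 0.21 to 0.29. The gene lies on chromosome 6 from 52223100 to 52231089.

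Hoxa10, at the 5′ side of Hoxa9 (chromosome 6, 52231197 to 52240854), is a HOX factor of early myeloid progenitors. It stood at 108, 137 and 101 CPM in ON, at 118, 139 and 125 CPM in OFF24 and at 136, 203 and 141 CPM in OFF48. The 3 groups overlapped, and OFF48 replicate 2 was the highest library. The change was log2 0.14 ± 0.15 at 24 h (edgeR adjusted p = 0.486) and the gene rose 1.36-fold at 48 h (log2 0.44 ± 0.15, edgeR adjusted p = 0.0196). That call was lost without OFF48 replicate 2 (log2 0.26, edgeR adjusted p = 0.106), without ON replicate 1 (0.0776) or without ON replicate 3 (0.0859), and over 19 settings its adjusted p ran from 0.000476 to 0.106.

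Replicate 2 was at the same end of all 3 groups for several members. It had the lowest Hoxa7 and Pbx3 levels and the highest Hoxa10 and Meis1 levels of ON, of OFF24 and of OFF48, and 0 Mecom counts in each. Libraries with the same replicate number in ON and OFF48 deviated together in all 3 pairs (correlations of their deviations from the group means across 7944 genes of 0.16, 0.47 and 0.15 for replicates 1, 2 and 3), which was not so for every pair with OFF24.

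**Figure D2:**
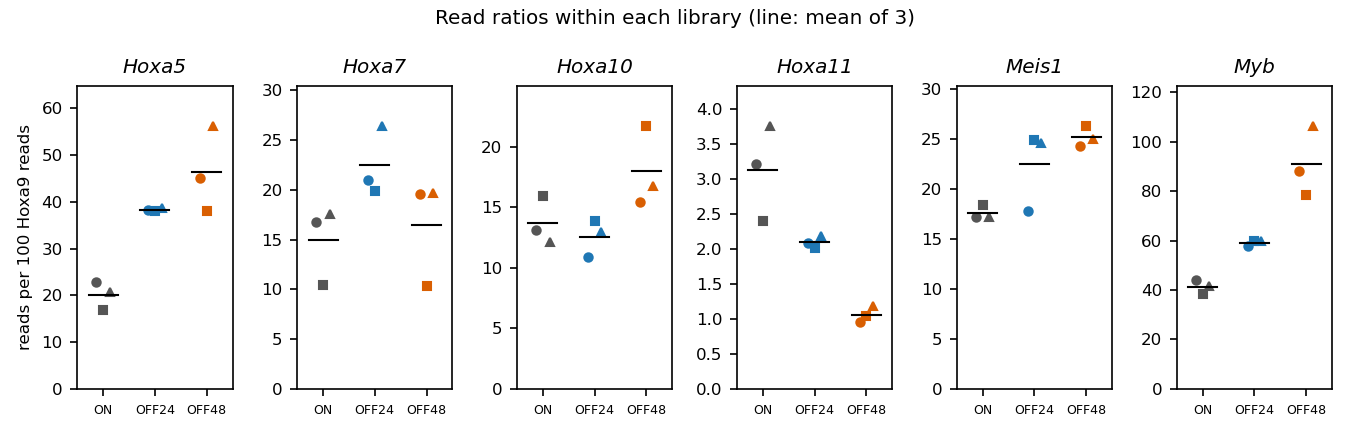
Reads of 6 genes per 100 Hoxa9 reads in the same library (vertical axes, linear from 0), by group and replicate number (circle 1, square 2, triangle 3), with the mean as a line. Hoxa5 and Myb are higher, and Hoxa11 is lower, in every library without doxycycline than in every ON library.

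Ratios within a library do not depend on the scaling between libraries, and they show that the cluster did not move as a unit. Hoxa5 gave 22.9, 16.9 and 20.6 reads per 100 Hoxa9 reads in ON, 38.3, 38.1 and 38.7 in OFF24 and 45.0, 38.0 and 56.3 in OFF48. Hoxa7 gave 10.5 to 17.6 reads per 100 Hoxa9 reads in ON, 19.9 to 26.4 in OFF24 and 10.3 to 19.6 in OFF48. Hoxa10 gave 12.1 to 15.9, 10.9 to 13.9 and 15.4 to 21.7, ranges that overlap between ON and both other groups. With 3 libraries against 3, an exact two-sided permutation test of a ratio cannot go below p = 0.1, so none is given.

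Meis1 (chromosome 11, 18879817 to 19018985) encodes the TALE partner that makes HOXA9 strongly leukaemogenic. It stood at 142, 159 and 145 CPM in ON, at 194, 249.2 and 238 CPM in OFF24 and at 214, 247 and 210.2 CPM in OFF48. Both groups without doxycycline lay above ON and overlapped each other. The rise was 1.53-fold at 24 h (log2 0.62 ± 0.11, edgeR adjusted p = 0.000301) and log2 0.58 ± 0.11 at 48 h (edgeR adjusted p = 0.000289), and the difference between the times was log2 -0.03 ± 0.11 (edgeR adjusted p = 0.876). Per 100 Hoxa9 reads there were 17.2, 18.4 and 17.3 Meis1 reads in ON, 17.9, 24.95 and 24.6 in OFF24 and 24.4, 26.4 and 25.1 in OFF48.

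Pbx3 (chromosome 2, 34171457 to 34373142) encodes the PBX protein that bridges HOXA9 and MEIS1 on DNA. It stood at 309, 255 and 357 CPM in ON, at 475, 410.3 and 457 CPM in OFF24 and at 449, 320.2 and 372 CPM in OFF48. OFF24 lay above ON, and OFF48 overlapped both. The rise at 24 h was 1.46-fold (log2 0.55 ± 0.13, edgeR adjusted p = 0.00306). At 48 h the change was log2 0.32 ± 0.13 with an edgeR adjusted p of 0.0522. With the replicate number as a block the 48 h rise passed (log2 0.31, edgeR adjusted p = 0.0077), and it passed in 6 of 19 alternative settings in all (adjusted p from 0.0077 to 0.302).

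Myb (chromosome 10, 21124935 to 21160984), the transcription factor that holds blood progenitors in an undifferentiated and dividing state, was the member that went on rising. It stood at 365, 330.1 and 349.6 CPM in ON, at 627, 599.8 and 579 CPM in OFF24 and at 777, 736 and 894 CPM in OFF48. The 3 groups did not overlap and were ordered ON, OFF24, OFF48. The rise was 1.73-fold at 24 h (log2 0.79 ± 0.10, edgeR adjusted p = 5.97e-06) and 2.31-fold at 48 h (log2 1.21 ± 0.10, edgeR adjusted p = 1.11e-08). The step from 24 h to 48 h was 1.33-fold (log2 0.42 ± 0.10, edgeR adjusted p = 0.00464), and it passed in all 19 alternative settings. Reads of Myb per 100 Hoxa9 reads were 44.3, 38.2 and 41.7 in ON, 57.7, 60.1 and 59.8 in OFF24 and 88.3, 78.7 and 107 in OFF48.

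Mef2c (chromosome 13, 83504034 to 83667080), a MADS-box factor of myeloid and lymphoid progenitors, was low. It stood at 10.2, 10.3 and 16.8 CPM in ON, at 13.8, 13.8 and 20.0 CPM in OFF24 and at 13.8, 9.75 and 12.2 CPM in OFF48. ON overlapped both other groups. Neither change against ON passed the test (log2 0.40 ± 0.23 at 24 h, edgeR adjusted p = 0.186, and log2 0.02 ± 0.25 at 48 h, edgeR adjusted p = 0.956). The 24 h change passed only without ON replicate 3 (log2 0.63, edgeR adjusted p = 0.0474). The gene had 13 to 67 counts per library, and what size of change could be detected at that depth was not tested.

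Mecom (chromosome 3, 29951296 to 30548008), the zinc-finger factor EVI1 of blood stem cells, was close to absent. It had 1, 0 and 2 counts in ON, 3, 0 and 2 in OFF24 and 2, 0 and 12 in OFF48. Where it had 0 counts, a floor of 3 counts allows up to 0.737 CPM (ON replicate 2), 0.942 CPM (OFF24 replicate 2) and 2.25 CPM (OFF48 replicate 2), counting error only. The 12 counts of OFF48 replicate 3 stand apart, and that library also had the largest share of its reads in rows with under 6 counts in each other library (0.192%, against 0.0639% to 0.135%). Its part in the Mecom value was not tested. With no filter on low counts, Mecom did not pass at 48 h (log2 2.38 ± 1.005, edgeR adjusted p = 0.0576) or at 24 h (log2 0.88 ± 1.18, edgeR adjusted p = 0.636).

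**Figure D3:**
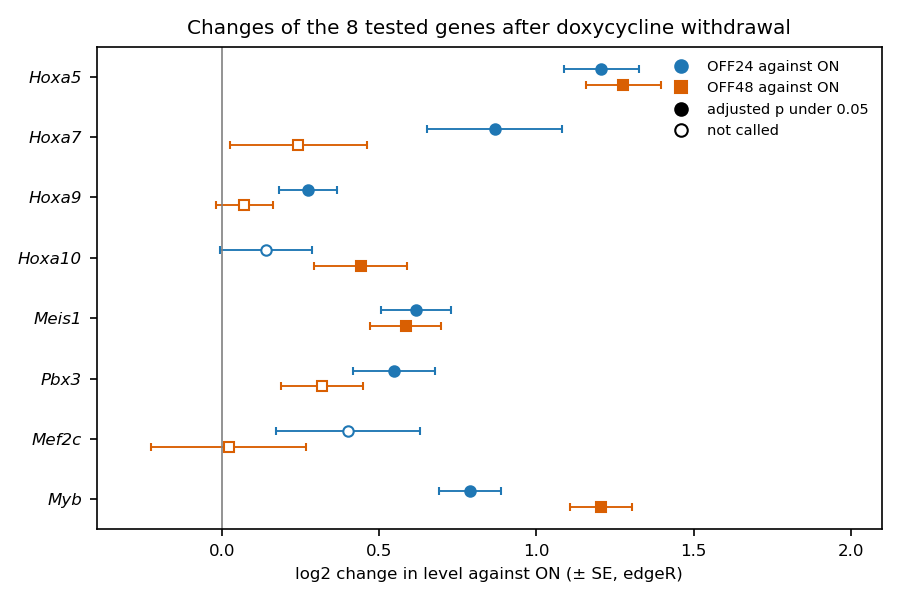
Log2 change against ON (horizontal axis, ± SE) of the 8 tested members at 24 h (circles) and 48 h (squares), filled where the edgeR adjusted p is under 0.05. Changes at 24 h and 48 h share the ON libraries, and the filled points all lie to the right of 0.

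The HOXA cluster holds other genes and noncoding RNAs around these members. Of 13 other cluster genes and noncoding RNAs listed, 8 were tested. At 24 h 1 rose and 0 fell (median log2 0.32), where 17.8% of all tested genes rose and 17.4% fell. At 48 h 0 rose and 4 fell (median log2 -0.86), where 23.4% of all tested genes rose and 23.9% fell. Between 24 h and 48 h 5 fell and 0 rose, where 11.2% of all tested genes fell and 9.99% rose.

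Falls at 48 h lay on both sides of the members. Hoxa11, a HOX gene of the 5′ side, stood at 26.5, 20.6 and 31.5 CPM in ON, at 22.6, 20.1 and 21.1 CPM in OFF24 and at 8.39, 9.75 and 9.91 CPM in OFF48. OFF48 lay below the other groups, which overlapped (log2 -1.47 ± 0.21 at 48 h, edgeR adjusted p = 8.7e-06). Hoxa11os, the noncoding RNA across from Hoxa11, went from 17.2 ± 2.69 CPM (SD, n = 3) in ON and 21.2 ± 3.38 in OFF24 to 4.80 ± 0.644 in OFF48 (log2 -1.82 ± 0.25 against ON, edgeR adjusted p = 5.86e-06).

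At the 3′ side, Hotairm1, a myeloid noncoding RNA, went from 33.9 ± 7.59 CPM in ON to 14.7 ± 4.57 in OFF48 (log2 -1.11 ± 0.20, edgeR adjusted p = 0.000164).

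Hoxa3, a 3′ side HOX gene, was like Hoxa7 highest in OFF24, with 43.1, 44.7 and 45.1 CPM in ON, 79.0, 70.9 and 75.1 CPM in OFF24 and 37.2, 36.7 and 49.6 CPM in OFF48. It rose at 24 h (log2 0.76 ± 0.13, edgeR adjusted p = 0.000129) and fell from 24 h to 48 h (log2 -0.83 ± 0.13, edgeR adjusted p = 0.000149), which left it at log2 -0.08 ± 0.14 against ON. Its annotated 3′ end overlaps Hoxaas2 on the other strand, which had 0 to 5 counts per library. Hoxaas3 fell between 24 h and 48 h (log2 -1.22 ± 0.39, edgeR adjusted p = 0.0305), a call lost in 7 of 18 settings, among them without OFF24 replicate 2 (edgeR adjusted p = 0.163), OFF24 replicate 3 (0.108), OFF48 replicate 1 (0.136) or OFF48 replicate 3 (0.0683). Hoxa2 (8.90 CPM on average in ON) and Hoxa4 (13.4 CPM) did not pass against ON, at log2 0.48 ± 0.26 and 0.07 ± 0.25 at 48 h. With the replicate number as a block, Hoxa2 passed at 48 h (log2 0.58, edgeR adjusted p = 0.0372). Hoxa6, Hoxa13, Hoxaas2, Hottip and Evx1 had too few counts to be tested.

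**Figure D4:**
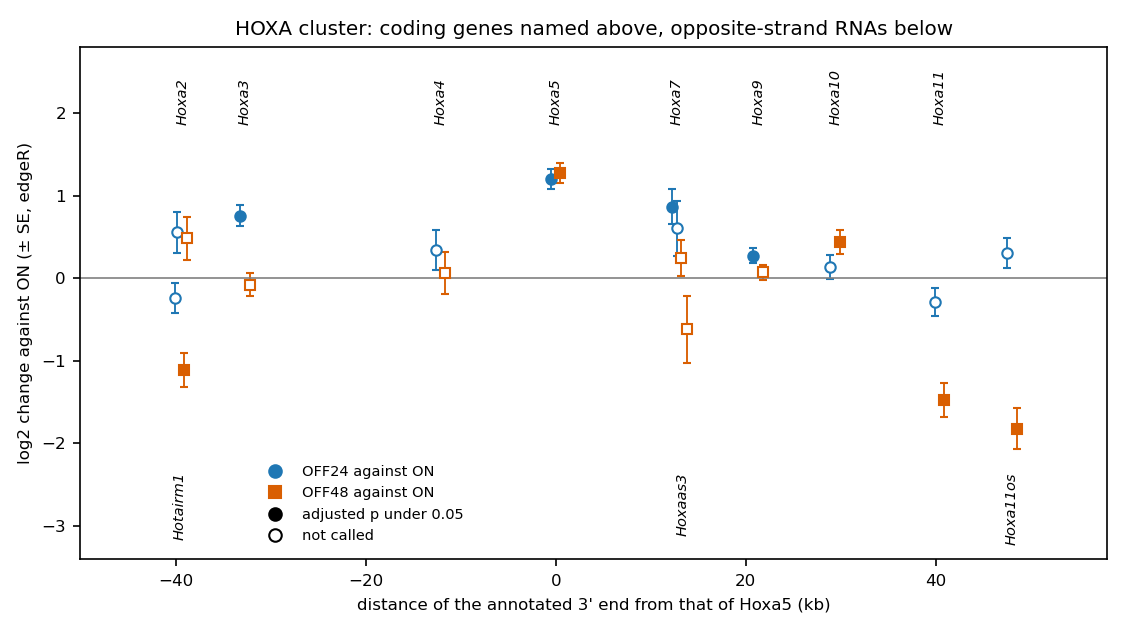
Log2 change against ON (vertical axis, ± SE) at 24 h (circles) and 48 h (squares) along the HOXA cluster, by the distance of each annotated 3′ end from that of Hoxa5 (kb), filled where the edgeR adjusted p is under 0.05. The 48 h changes of the coding genes from Hoxa5 (0 kb) to Hoxa10 (29.4 kb) are above 0, and Hotairm1 (-39.6 kb), Hoxa11 (40.4 kb) and Hoxa11os (48.0 kb) are below -1.

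Other HOX clusters were nearly silent. Of 28 HOXB, HOXC and HOXD genes, 3 were tested, 1 of which rose at 24 h and all 3 at 48 h. Among all tested genes, 17.8% rose at 24 h and 23.4% at 48 h. Hoxb4, which expands blood stem cells when forced on, went from 16.2 ± 4.12 CPM (SD, n = 3) in ON and 16.1 ± 4.04 in OFF24 to 27.95 ± 1.27 in OFF48 (log2 0.78 ± 0.20 against ON, edgeR adjusted p = 0.00367). Hoxb3 was at 3.596 ± 1.61, 8.08 ± 1.94 and 9.21 ± 1.80 CPM (log2 1.18 ± 0.33 at 24 h, edgeR adjusted p = 0.00868). That 24 h call was lost without ON replicate 2 (edgeR adjusted p = 0.0538) or OFF24 replicate 3 (0.0695). Hoxb13 rose at 48 h (log2 0.70 ± 0.21, edgeR adjusted p = 0.0108), but not without OFF48 replicate 3 (edgeR adjusted p = 0.103) or with DESeq2 (adjusted p = 0.0695).

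Of 10 further TALE factors and PBX partners, 4 were tested, with 1 up at 24 h and 2 up and 1 down at 48 h. Among all tested genes, 17.8% rose at 24 h, and 23.4% rose and 23.9% fell at 48 h. Pbxip1, which binds PBX proteins and keeps them from DNA, stood at 192, 161 and 197 CPM in ON, at 349, 331 and 327 CPM in OFF24 and at 445, 436 and 359 CPM in OFF48. All 6 libraries without doxycycline were above ON (log2 0.87 ± 0.11 at 24 h, edgeR adjusted p = 6.74e-06, and 1.17 ± 0.11 at 48 h, edgeR adjusted p = 6.92e-08). Pknox1, a MEIS relative, rose at 48 h (log2 0.63 ± 0.15, edgeR adjusted p = 0.0018), and the repressor Tgif1 fell from 11.3 ± 2.73 to 4.88 ± 1.10 CPM (log2 -1.15 ± 0.28, edgeR adjusted p = 0.00218). Pbx2 was at log2 0.27 ± 0.11 and 0.22 ± 0.11 and passed at neither time. Meis2, a paralogue of Meis1, had 0 to 8 counts per library and was not tested.

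Of 6 paralogues of Mef2c, Myb and Mecom, 3 were tested. Mybl2, the MYB relative of dividing cells, moved against Myb. It stood at 121, 142 and 135 CPM in ON, at 69.8, 71.6 and 68.5 CPM in OFF24 and at 86.2, 93.0 and 83.4 CPM in OFF48, so that all libraries without doxycycline were below ON. The fall was log2 -0.92 ± 0.11 at 24 h (edgeR adjusted p = 2.44e-06) and -0.61 ± 0.11 at 48 h (edgeR adjusted p = 0.000118). Per 100 Myb reads there were 33.0 to 43.0 Mybl2 reads in ON, 11.1 to 11.9 in OFF24 and 9.33 to 12.6 in OFF48. Mef2d rose at 24 h (log2 0.34 ± 0.11, edgeR adjusted p = 0.0187), a call lost in 4 of 19 alternative settings. It was also up at 48 h (log2 0.38 ± 0.11, edgeR adjusted p = 0.00737). Mef2a passed at neither time (log2 -0.23 ± 0.15 and 0.13 ± 0.15).

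**Figure D5:**
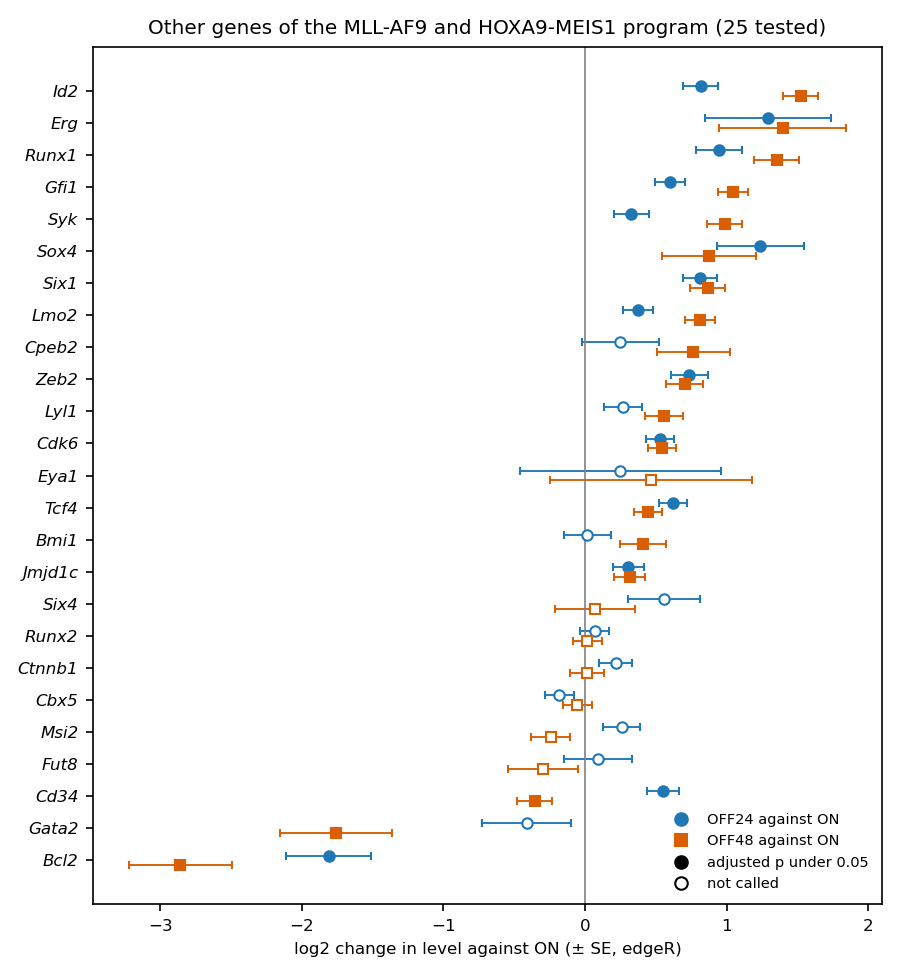
Log2 change against ON (horizontal axis, ± SE) of the 25 tested other genes of the MLL-AF9 and HOXA9-MEIS1 program at 24 h (circles) and 48 h (squares), ordered by the 48 h change, filled where the edgeR adjusted p is under 0.05. At 48 h 15 filled points lie above 0 and 3 below, and Bcl2 is the lowest at both times.

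Of 36 other genes tied to MLL-AF9 or to HOXA9 and MEIS1, 25 were tested. At 24 h 13 rose and 1 fell (median log2 0.33), where 17.8% of all tested genes rose and 17.4% fell. At 48 h 15 rose and 3 fell (median log2 0.47), where 23.4% rose and 23.9% fell. The 24 h count includes Syk (log2 0.33 ± 0.13, edgeR adjusted p = 0.0486), whose call at that time was lost in 13 of 19 alternative settings (adjusted p from 0.024 to 0.239). Id2, an inhibitor of helix-loop-helix factors, went from 53.3 ± 4.97 CPM in ON to 93.9 ± 5.77 in OFF24 and 152 ± 19.8 in OFF48 (log2 1.52 ± 0.12 at 48 h, edgeR adjusted p = 6.72e-09). Gfi1, a repressor needed for neutrophil development, and Runx1, a core blood transcription factor, rose by log2 1.04 ± 0.11 and 1.35 ± 0.16 at 48 h (edgeR adjusted p = 1.7e-07 and 1.03e-06).

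Lmo2, a bridging factor of stem cell complexes, and Syk, a kinase linked to Meis1 in leukaemia, rose by log2 0.81 ± 0.11 and 0.99 ± 0.12 at 48 h (edgeR adjusted p = 4.03e-06 and 2.38e-06). Bcl2, an anti-apoptotic gene of the same list, fell from 14.4 ± 3.24 CPM in ON to 3.89 ± 1.21 in OFF24 and 1.67 ± 1.12 in OFF48 (log2 -2.86 ± 0.36 at 48 h, edgeR adjusted p = 3.01e-06).

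The line carried myeloid genes throughout, and most listed genes of myeloid identity and maturation rose. The 16 listed, all tested, summed to 4139 to 4364 CPM in ON, 7327 to 7479 in OFF24 and 14963 to 16246 in OFF48. Camp alone had a mean of 202 CPM in ON and 5167 CPM in OFF48. At 24 h 11 rose and 0 fell, and at 48 h 13 rose and 0 fell. Between 24 h and 48 h 9 rose, 0 fell and 7 were not called, so the 16 did not share 1 course. In that contrast 9.99% of all tested genes rose and 11.2% fell. Of all tested genes, 17.8% rose at 24 h and 23.4% at 48 h. The median log2 change of the 16 was 0.70 at 24 h and 1.30 at 48 h, against 0.58 and 0.38 for the members. The part of these 16 genes in the members' changes was not tested. Lymphoid, erythroid, and hepatocyte and stromal markers each summed to at most 6.71 CPM in any library, with Alb and both beta-globin genes (Hbb-bs and Hbb-bt) at 0 counts. Markers of megakaryocytes, mast cells and basophils together reached 60.6 to 100.01 CPM, most of it from Gp1bb, and Cpa3 had 0 counts.

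The genes with the most similar course over the 9 libraries were found by the root mean square difference in centred log2 CPM, among 7701 genes. For Hoxa5 they were Tnrc6b (0.09) and Irak3 (0.11), and for Myb Prdx5 (0.07) and Anxa5 (0.08). For Hoxa7 they were Arrb1 (0.15) and Igbp1 (0.17), for Hoxa9 Herc1 (0.06) and Kdelr1 (0.06), and for Hoxa10 Alas1 (0.07) and Synrg (0.07). For Meis1 they were Ccnl1 (0.07) and Gyg (0.07), for Pbx3 Mrpl33 (0.08) and Ccnt2 (0.09), and for Mef2c Dync1h1 (0.17) and Gimap9 (0.17). Within a difference of 0.2 lay 57 genes for Hoxa5 and 8 for Hoxa7, against 1150 for the flatter Hoxa9.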

How the data were processed

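The authors deposited whole-number read counts per gene symbol, 1 column per library, not normalised, as the values show. Per the labels' protocols, the library kit was Lexogen QuantSeq 3'. The submitters' processing notes name the build mm10 and, without roles, limma 3.42.2, R 3.6.1, featureCounts of Subread 1.5.0-p3, and HISAT2 2.0.4. For counting, neither annotation nor strand setting is given in the sources used here. A second deposited table of log2 values (voom and limma, per its name) served only as an alternative.

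The members and gene lists were chosen with earlier results of these data known. Groups came from the sample titles. The test of the counts was that of edgeR 4.0.16, under R 4.3.3 (filterByExpr by group, TMM, robust quasi-likelihood fit of all 9 libraries, 6 residual degrees of freedom, Benjamini-Hochberg over 10215 genes, threshold 0.05) after a test on simulated data. The SE is the log2 change over the square root of F. Alternatives used limma 3.58.1 and DESeq2 1.42.0. Named genes were all members, tested HOXA and TALE genes, and up to 6 of each other list by smallest p. Some genes counted in the lists are not reported here by name. The 2 likest genes needed a mean of 10 CPM. Positions are from GENCODE M21, promoters from RefSeq (GRCm38.p6). Ends were compared with BLAST 2.17.0 over 400 bases, at 95% identity over at least 50 bases, and no member shared its end with another locus, apart from Hoxa7 with Hoxaas3 opposite. Replicate pairs had a chi-square of 1.99 to 6.99 for each degree of freedom, above counting noise, so each library counts once.

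Same-numbered libraries correlated at 0.15 to 0.47 between ON and OFF48, over 0.1 in all 3 pairs. The blocked value is therefore given there where it changes a call. That fit used all 9 libraries, so it also blocked the OFF24 libraries by number. Pairs with OFF24 ran from -0.09 to 0.24, so pairing by number was not shown for them, and the blocked values carry that limit.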

Additional observations from a re-analysis of the deposited data

Results flagged for a closer look

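A gene is listed here where its change against ON at 48 h differed from that at 24 h by the edgeR test of OFF48 with OFF24 (adjusted p under 0.05, as for 21.1% of all tested genes). The 24 h and 48 h changes share the ON libraries. Values are the 48 h change less the 24 h change on the log2 scale. Among the members this held for Myb (0.42). In the HOXA cluster it held for Hoxa3 (-0.83), Hoxa11 (-1.19), Hotairm1 (-0.87), Hoxa11os (-2.12) and Hoxaas3 (-1.22), all lower at 48 h. Among other homeobox genes it held for Hoxb4 (0.82), Pknox1 (0.46) and Tgif1 (-1.34). Of the partner proteins, Hdac7 (-1.39), Ctbp1 (0.49), Hdac4 (0.45), Hdac5 (0.45) and Mark2 (1.02) differed between the times. In the MLL-AF9 program list Id2 (0.71), Gfi1 (0.44), Syk (0.66) and Lmo2 (0.43) were higher at 48 h than at 24 h. In the same list Cd34 (-0.90, edgeR adjusted p = 2.33e-05), Msi2 (-0.50, edgeR adjusted p = 0.0127) and Gata2 (-1.35, edgeR adjusted p = 0.0287) were lower at 48 h. These 3 fall outside the rule for named genes and were added after their values were seen, and the alternative settings were not run for them.

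Hdac7 and Mark2 had changes against ON of opposite sign at the 2 times. Hdac7 rose at 24 h (log2 0.73 ± 0.12, edgeR adjusted p = 0.000169) and fell at 48 h (-0.66 ± 0.14, edgeR adjusted p = 0.000774). Mark2 fell at 24 h (log2 -0.52 ± 0.18, edgeR adjusted p = 0.0322). That call was lost without ON replicate 2 (edgeR adjusted p = 0.175) or without OFF24 replicate 1 (0.0659), 2 (0.0904) or 3 (0.075). It was also lost with DESeq2 (adjusted p = 0.0525) and with limma on the deposited log2 table (adjusted p = 0.0649). Mark2 rose at 48 h (0.50 ± 0.17, edgeR adjusted p = 0.0222), which was lost without OFF48 replicate 2 (edgeR adjusted p = 0.0959), ON replicate 1 (0.108) or ON replicate 3 (0.0781).

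Some of these differences between the times rested on single libraries. Pknox1 lost its call in 8 of 19 alternative settings, with an edgeR adjusted p of up to 0.179 (without OFF24 replicate 3), and Hdac5 in 6 of 19, up to 0.118 (without OFF24 replicate 1). Hoxb4 lost it without OFF24 replicate 3 (edgeR adjusted p = 0.0559) and Hdac4 without OFF48 replicate 3 (edgeR adjusted p = 0.0992).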

How the results depend on the processing

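The 19 alternatives were 3 other scalings, 2 other filters, DESeq2, limma-voom, limma on the deposited log2 table, a fit to the 2 groups compared, the replicate block, and leaving out each library. No called change of a named gene reversed. Leaving out 1 library gave 5 to 6 members called at 24 h (6 in the fit reported) and 3 to 5 at 48 h (4). Between OFF48 and OFF24 it gave 1 to 2 (1), the second being Hoxa7. That count was also 2 with no filter, with DESeq2, with limma-voom, with the deposited table and with the 2 groups alone, each adding Hoxa7, and the cause was not tested. With the replicate block, 6 members were called at 24 h, 5 at 48 h against ON (Pbx3 added) and 3 between 48 h and 24 h (Hoxa7 and Hoxa10 added). Against ON at 48 h the block changed the call of no other named gene than Pbx3, Hoxa2 and Gp1bb. By number, only 3 of 9 libraries correlated best with their own number. The block covered all 9 libraries, so its calls in contrasts with OFF24 rest on a pairing that was not shown. Over the members, 430 of the single-gene results in alternatives kept their side of the threshold, 10 lost a call and 16 gained one. Mecom and Mef2c had the fewest counts of the members.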

Other observations

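MEF2C acts through class IIa histone deacetylases, which hold it in a repressive state and are themselves controlled by SIK and MARK kinases. Of 12 partner proteins of MEF2C, MYB and MECOM, all tested, 3 rose and 1 fell at 24 h, and 6 rose and 1 fell at 48 h. Of all tested genes, 17.8% rose and 17.4% fell at 24 h, and 23.4% rose and 23.9% fell at 48 h. The 24 h count includes Hdac5 (log2 0.39 ± 0.15, edgeR adjusted p = 0.0425), whose call at that time was lost in 11 of 19 alternative settings (adjusted p from 0.0207 to 0.259). The deacetylase Hdac4 stood at 38.4 ± 4.64 CPM (SD, n = 3) in ON, 54.0 ± 1.54 in OFF24 and 73.0 ± 8.98 in OFF48 (log2 0.95 ± 0.13 at 48 h, SE, edgeR adjusted p = 7.81e-06). Hdac5 stood at 26.7 ± 1.23, 34.7 ± 5.82 and 48.0 ± 3.01 CPM (log2 0.84 ± 0.14 at 48 h, edgeR adjusted p = 8.84e-05). Hdac7 stood at 54.4 ± 8.36, 90.9 ± 1.24 and 35.4 ± 4.31 CPM. Hdac9 was scarce at 1.10 ± 0.605, 3.02 ± 1.00 and 6.43 ± 3.14 CPM (log2 2.33 ± 0.51 at 48 h, edgeR adjusted p = 0.00088). Ctbp1, a corepressor that binds the MECOM protein, went from 143 ± 3.16 CPM in ON to 233 ± 13.5 in OFF48 (log2 0.69 ± 0.10, edgeR adjusted p = 7.52e-06).

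A pair of stem and progenitor surface genes was picked out after their values were seen. Cd34 rose at 24 h (log2 0.55 ± 0.11, edgeR adjusted p = 0.00105) and fell at 48 h (-0.35 ± 0.12, edgeR adjusted p = 0.0225). Kit, the stem cell factor receptor, had only 2 to 19 counts per library and was not tested.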
